A study of Mus musculus with 8 samples.

Results

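Cells of the mouse basal cell carcinoma line ASZ001 that combined an shRNA against Tgfbr1 with RasV12 were compared with the same line carrying a non-silencing shRNA. The combined cells, called double here, bear the genotype label TGFbR1kd_RasV12 and had been treated with Dox and 4OHT. The baseline cells bear the genotype label control and had received DMSO. The comparison rests on 4 of the 8 libraries of the series, chosen by their column names, with 2 libraries in each group. The other 4 libraries hold knockdown cells under DMSO (knockdown alone) and non-silencing cells with RasV12 under Dox and 4OHT (Ras alone), and are used to place the double libraries. Of 24907 gene symbols, 12538 passed the filter on low counts and were tested. Dox usually stands for doxycycline and 4OHT for 4-hydroxytamoxifen. All cells come from 1 line, and the sources used here do not give doses, treatment times, the number of shRNAs or the number of clones. Dox and 4OHT were never given without RasV12, so drug effects and RasV12 effects cannot be told apart. It is not stated whether both libraries of a group stem from different cultures. The p-values therefore reflect the spread among these libraries, which could be technical.

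Basal cell carcinoma is a skin tumour driven by the Hedgehog pathway, whose cells keep features of basal and hair follicle keratinocytes. Squamous cell carcinoma, in contrast, shows squamous differentiation and often activation of Ras. Ras passes signals from growth factor receptors to the MAPK kinase cascade, which switches on ETS and AP-1 transcription factors and its own inhibitors of the Sprouty and DUSP families. Tgfbr1 is the type I receptor kinase of TGF-beta; it phosphorylates SMAD proteins, which in epithelial cells restrain growth and induce matrix genes. The title of the series places the experiment in the transition from basal to squamous carcinoma.

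Library totals ran from 12724604.5 to 16233379 counts, and were 15542242 and 13047710 in the double libraries. The correlation of log2 CPM (counts scaled to 1000000 per library) between the 2 libraries of a group was 0.995 to 0.996. Rn45s, which encodes ribosomal RNA, held 2.49 and 2.57% of counts in the double libraries and 0.816 and 0.549% at baseline. It also varied within groups, with 0.387 and 1.36% in knockdown alone and 0.916 and 2.76% in Ras alone. Without it 8141 genes were called in the combined comparison, against 8136 with it. Keratinocyte markers (Krt5, Krt14, Trp63, Cdh1, Epcam, Perp) were present in every library, with a summed level of 23623 to 24005 CPM at baseline and 10686 to 11255 CPM in the double libraries. Most of this sum was Krt5 and Krt14, which fell. Trp63, Cdh1 and Epcam were higher in the double libraries than at baseline, and Perp was lower.

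The targeted receptor was low in the double libraries. Tgfbr1 was at 77.1 and 80.4 CPM at baseline and at 8.86 and 9.38 CPM in the double libraries, with no overlap; the 2 groups did not overlap at 10375 genes (82.7%). The log2 change was -3.11 ± 0.09 (approximate standard error, back-calculated from the F test). Its adjusted p was 9.10e-20 in the quasi-likelihood test of edgeR (two-sided, Benjamini-Hochberg adjustment across the tested genes). Adjusted p means this edgeR test throughout. In knockdown alone Tgfbr1 was at 10.2 and 8.08 CPM, and the difference of the double libraries from these did not pass the test (0.00 ± 0.14 on the log2 scale, edgeR adjusted p = 0.99). Tgfbr3, a co-receptor that presents TGF-beta ligands, had 1 count in the baseline libraries together and 190.5 in the double libraries, a ratio of 204 after scaling (95% counting interval 36.3 to 8124). The double libraries held Tgfbr3 at 7.30 and 6.10 CPM, above knockdown alone (1.37 and 1.26) and Ras alone (0.309 and 0.220).

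Among the Ras genes, Hras was at 176 and 179 CPM at baseline and 53.3 and 52.4 CPM in the double libraries. Its log2 change of -1.75 ± 0.05 (adjusted p = 2.34e-22) lay beside -1.61 for knockdown alone and -0.15 for Ras alone. Nras rose by 0.50 ± 0.03 on the log2 scale. The sources used here do not name the gene or species of the RasV12 sequence, so these levels cannot be assigned to the introduced Ras. Esr1, the oestrogen receptor gene, had the largest rise among genes with a mean of at least 5 CPM over the 4 libraries, from 15.9 and 14.1 CPM at baseline to 3987 and 3787 CPM in the double libraries. It stood at 3451 and 3657 CPM in Ras alone and at 22.8 and 22.4 CPM in knockdown alone, so both groups treated with Dox and 4OHT were high and both DMSO groups low. The counts do not tell transcripts of the cell's own Esr1 from those of an introduced sequence.

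The double cells differed from baseline at 8136 of 12538 genes, 64.9%, with 4022 higher (32.1%) and 4114 lower (32.8%). At least 2-fold differences were found for 1662 genes, 13.3%, of which 827 were higher (6.6% of genes tested) and 835 lower (6.66%). The median log2 change over all genes tested was -0.01. With DESeq2 in place of edgeR, 6462 genes were called and 1526 of them differed at least 2-fold. The double libraries were also set against each single group: 4531 genes (36.1%) differed from knockdown alone (19.5% of tested genes higher, 16.6% lower) and 7542 (60.2%) from Ras alone (30.5% higher, 29.7% lower). With DESeq2 these counts were 2628 and 5834. The single groups differed from baseline at 7763 genes (61.9%, knockdown alone) and 5281 genes (42.1%, Ras alone; 3265 with DESeq2). The combined change and each single change share the baseline libraries, so for named genes they are given side by side and not correlated.

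**Figure D1:**
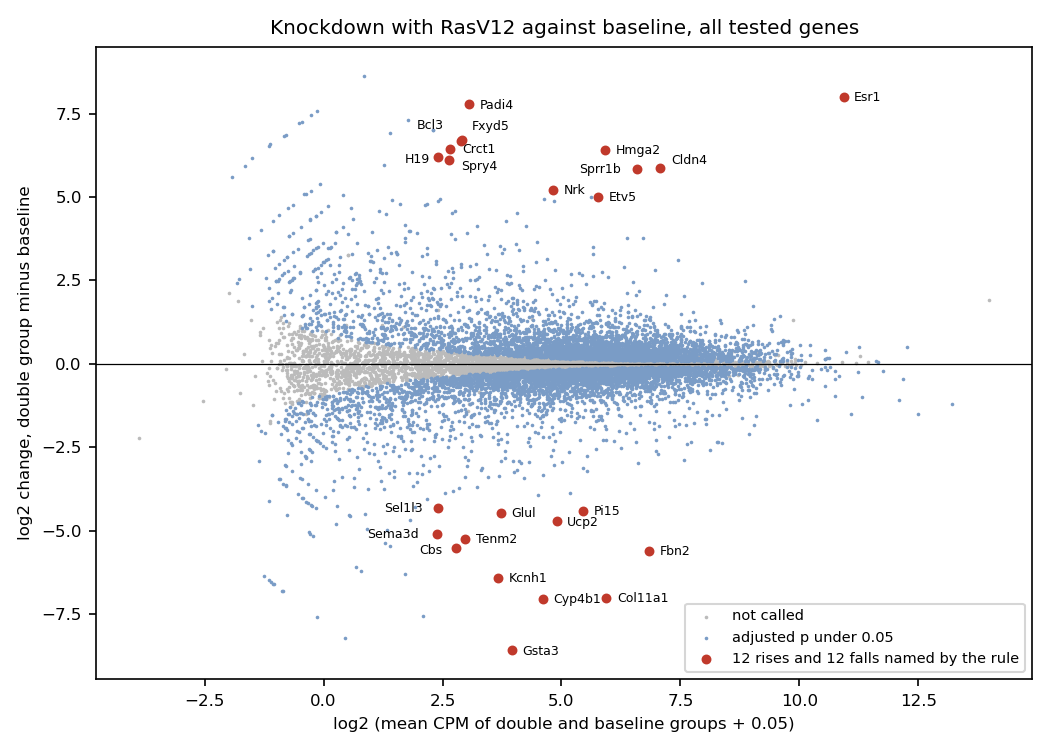
Each point is 1 of the 12538 tested genes; the x axis is log2 of the mean CPM of the double and baseline groups (with 0.05 added) and the y axis the log2 change, double minus baseline. The 12 rises and 12 falls named by the rule are labelled: Esr1 lies alone at the upper right, at 8.01, and Gsta3 lowest, at -8.60.

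Among genes with a mean of at least 5 CPM over the 4 libraries compared, the largest rises included an epithelial tight junction gene, cornified envelope genes and oncofetal genes. Cldn4, a claudin that seals tight junctions, was at 3.98 and 5.12 CPM at baseline and 266 and 266 CPM in the double libraries. It was at 40.3 and 39 CPM in knockdown alone and 6.79 and 8.35 CPM in Ras alone, so both double libraries lay above the 6 others. The rise was 59.4-fold, or 5.88 ± 0.08 on the log2 scale (adjusted p = 7.33e-29), and the double libraries exceeded knockdown alone by 2.75 ± 0.05 (adjusted p = 2.61e-24). Sprr1b, a small proline-rich protein crosslinked into the cornified envelope, was at 2.86 and 3.69 CPM at baseline, 81.3 and 80.4 in knockdown alone, 5.25 and 5.20 in Ras alone and 191 and 187 in the double libraries. Its log2 change was 5.86 ± 0.08 (adjusted p = 2.32e-28). Padi4, a peptidylarginine deiminase, had 2 baseline counts and 465 counts in the double libraries, a ratio of 249 (95% counting interval 68.6 to 2063). Hmga2, a chromatin protein of embryonic and transformed cells, rose from 1.62 and 1.14 to 119 and 119.7 CPM, with 64.6 and 71.5 CPM in knockdown alone. H19, an imprinted noncoding RNA, rose from 0.124 and 0.142 to 11.3 and 9.53 CPM and was at 11.5 and 11.8 CPM in knockdown alone, while Ras alone held 0 and 0.0732 CPM. The remaining rises were Bcl3, a nuclear IkB protein (6.72 on the log2 scale), Fxyd5, a regulator of the sodium pump (6.69), Crct1 of the epidermal differentiation complex (6.44), the kinase gene Nrk (5.22), and the MAPK genes Spry4 (6.11) and Etv5 (5.01).

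By the same limit, the largest falls were in matrix, metabolic and membrane genes. Col11a1, a fibrillar collagen, was at 118 and 127 CPM at baseline and 0.847 and 1.02 CPM in the double libraries. Its log2 change was -7.03 ± 0.14 (adjusted p = 1.96e-20), beside -6.88 for knockdown alone and -1.49 for Ras alone. Gsta3, a glutathione transferase, went from 930.5 baseline counts to 2 counts in the double libraries, a level 434-fold lower after scaling (95% counting interval 119.9 to 3593). Fbn2, a fibrillin of elastic microfibrils, fell from 252 and 195 to 4.04 and 5.16 CPM. Cyp4b1, a cytochrome P450, fell from 48.4 and 48.6 to 0.326 and 0.391 CPM, and the potassium channel gene Kcnh1 from 26.2 and 23.7 to 0.195 and 0.391 CPM. Cbs, which makes cystathionine from homocysteine, fell by a log2 change of -5.53, with -3.20 in knockdown alone and -3.20 in Ras alone. The other falls were Tenm2 (-5.26), Sema3d (-5.11), Ucp2 (-4.73), Glul (-4.47), Pi15 (-4.42) and Sel1l3 (-4.32), all on the log2 scale.

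Promoter windows of 4 genes that rose are shown as examples of a match to an AP-1 or NF-kB motif. The genes and the motif marked in each were picked by hand. That all 4 hold a match therefore says nothing about the rises as a set. Each is the 250 bases before the gene's start in RefSeq on GRCm38.p6, 5′ to 3′ on the gene's strand; the counts were made on another build, mm9. Capitals mark matches, on either strand, to the AP-1 motif TGANTCA in the first 3 and to the NF-kB motif (GGGA, any 2 bases, TTCC) in Cxcl1, where 2 matches overlap. The windows are chr5:134946935-134947184 (minus strand) for Cldn4, chr3:92438780-92439029 (minus) for Sprr1b, chr3:92083143-92083392 (minus) for Lor and chr5:90890995-90891244 (plus) for Cxcl1.
Cldn4: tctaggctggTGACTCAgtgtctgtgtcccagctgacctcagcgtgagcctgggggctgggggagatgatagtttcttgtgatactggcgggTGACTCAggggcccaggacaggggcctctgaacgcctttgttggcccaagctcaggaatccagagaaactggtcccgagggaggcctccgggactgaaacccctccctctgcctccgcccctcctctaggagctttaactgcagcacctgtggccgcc
Sprr1b: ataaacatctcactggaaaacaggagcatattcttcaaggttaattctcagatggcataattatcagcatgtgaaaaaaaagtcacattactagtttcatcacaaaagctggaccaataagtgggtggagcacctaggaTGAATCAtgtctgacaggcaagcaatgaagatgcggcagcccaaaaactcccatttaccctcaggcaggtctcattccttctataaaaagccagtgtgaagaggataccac
Lor: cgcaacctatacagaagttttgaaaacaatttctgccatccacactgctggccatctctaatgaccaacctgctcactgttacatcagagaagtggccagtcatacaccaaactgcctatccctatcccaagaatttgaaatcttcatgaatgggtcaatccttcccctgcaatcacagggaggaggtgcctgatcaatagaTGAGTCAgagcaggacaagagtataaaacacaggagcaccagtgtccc
Cxcl1: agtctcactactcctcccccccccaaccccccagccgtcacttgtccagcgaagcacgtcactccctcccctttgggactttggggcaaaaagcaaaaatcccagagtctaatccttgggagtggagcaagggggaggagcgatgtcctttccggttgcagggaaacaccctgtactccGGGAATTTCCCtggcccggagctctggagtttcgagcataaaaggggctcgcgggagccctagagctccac

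RefSeq windows were found for 9711 of the tested genes. The AP-1 letters were present in 5.62% of these (6.75% of all 32851 windows), in 77 of 612 genes (12.6%) called at least 2-fold higher and in 57 of 603 (9.45%) called at least 2-fold lower. Among the lists described below, they were in 8 of 23 cornified envelope genes with a window (Ivl, Lor, Padi4, Rptn, Scel, Sprr1a, Sprr1b, Sprr2h), in 6 of 13 such cytokine and NF-kB genes, and in 0 of 12 such MAPK output genes. The NF-kB letters were in 1.38% of the tested genes with a window (1.21% of all windows) and in 5 of 13 such cytokine and NF-kB genes (Csf1, Cxcl1, Cxcl10, Nfkb2, Nfkbia). They were in 1.96% of genes at least 2-fold higher and 1.66% of those at least 2-fold lower. A gene was counted when any of its windows matched, whereas the shares of all windows count each window. A match describes the letters and does not show binding, and a part of AP-1 or NF-kB factors in the rises was not tested.

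Output and feedback genes of the MAPK cascade were higher in all tested members. Of 19 tested MAPK output and feedback genes, 19 were higher and 13 of them at least 2-fold, against 32.1% and 6.6% of all genes. Their median log2 change was 1.5, beside 1.18 in knockdown alone and 0.91 in Ras alone. Spry4, a Sprouty inhibitor of Ras signalling, was at 0.187 and 0.142 CPM at baseline and 11.3 and 13 CPM in the double libraries (log2 change 6.11 ± 0.37, adjusted p = 1.01e-11). Etv5, an ETS transcription factor downstream of ERK, was at 3.11 and 3.41 CPM at baseline, 40.2 and 48.2 in knockdown alone, 61.1 and 62.1 in Ras alone and 102 and 109 in the double libraries. Etv4, its relative, rose from 10.7 and 11.8 to 156 and 152 CPM. The phosphatase gene Dusp6 rose from 16.2 and 21.3 to 139.7 and 139.7 CPM, and Dusp4 from 0.498 and 0.568 to 13 and 12.8 CPM. In 14 of the 19 genes both double libraries lay above the 6 others, which held for 18.5% of all genes. The cyclin gene Ccnd1 was among these, at 389 and 383 CPM against 209 and 210.5 at baseline.

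Most AP-1 subunits and EGFR family genes were higher too. Of 9 tested AP-1 genes, 7 were higher and 2 lower, with 5 at least 2-fold higher. Among all genes 32.1% were higher, 6.6% at least 2-fold, and 32.8% lower. Fosl1, the Fra-1 subunit, was at 1.37 and 1.42 CPM at baseline, 13.1 and 14.6 in knockdown alone, 4.79 and 5.71 in Ras alone and 27.6 and 26.4 in the double libraries (log2 change 4.27 ± 0.15). Fos rose by 2.97, Maff by 2.43 and Atf3 by 2.27 on the log2 scale. The 2 that fell were Fosl2 (-0.95) and Jun (-0.26). Summed over the AP-1 list, the level was 1334 and 1312 CPM at baseline and 1387 and 1365 CPM in the double libraries. Of 12 tested EGFR family ligands, receptors and regulators, 9 were higher, 7 of them at least 2-fold, and 2 were lower. The ligand genes Areg, Ereg, Epgn and Tgfa rose by 3.78 ± 0.29, 3.0 ± 0.16, 2.36 ± 0.09 and 1.71 ± 0.06. Ereg was at 16.5 and 15.8 CPM in the double libraries and 16.7 and 18.1 in knockdown alone, a difference that did not pass the test (adjusted p = 0.463). Among the receptors, Erbb3 rose from 50.1 and 47.5 to 128 and 133 CPM and Egfr itself fell by a log2 change of -0.15.

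**Figure D2:**
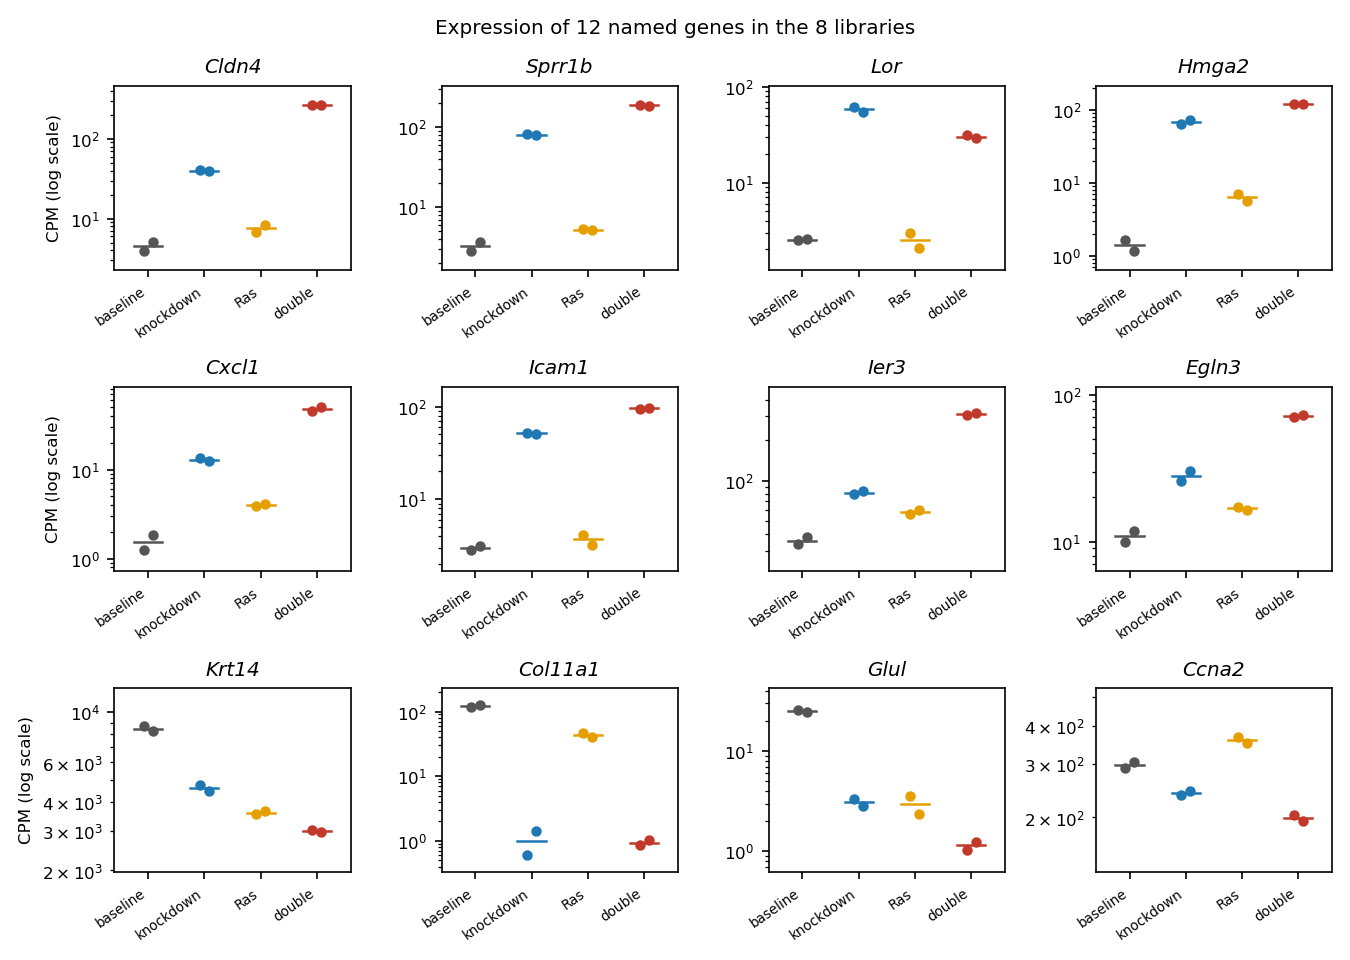
CPM of 12 genes in the 8 libraries, on log axes; points are libraries and bars are means of 2. In Cldn4, Sprr1b, Hmga2, Cxcl1, Icam1, Ier3 and Egln3 both double libraries lie above all others, in Lor they lie between knockdown alone and the other groups, and in Krt14, Glul and Ccna2 they lie below all others.

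Most late differentiation genes of the epidermis were higher, while spinous layer genes were mostly lower. Over all genes, 32.1% were higher, 6.6% at least 2-fold, and 32.8% lower. Of 26 tested members of the cornified envelope list, 20 were higher, 19 of them at least 2-fold, and 4 were lower. Their median log2 change was 2.57, or 2.37 when 7 genes at or under 3 counts in a group were set at that floor. It stood beside 2.19 for knockdown alone and -0.01 for Ras alone. Lor, the main protein of the cornified envelope, was at 2.49 and 2.56 CPM at baseline and 31.3 and 29.2 CPM in the double libraries (log2 change 3.58 ± 0.14, adjusted p = 1.60e-18). In knockdown alone Lor was at 61.9 and 55.1 CPM, above the double libraries (difference -0.95 ± 0.08, adjusted p = 1.14e-10). Calm4, a calmodulin of differentiating keratinocytes, was likewise at 20.5 and 13.8 CPM in knockdown alone and 5.21 and 4.14 CPM in the double libraries. Sprr1b and the transglutaminase gene Tgm1 were the other way round, with Tgm1 at 1.55 and 1.71 CPM at baseline, 6.87 and 6.75 in knockdown alone and 8.86 and 11.1 in the double libraries. Ivl, or involucrin, rose from 0.249 and 0.853 to 5.99 and 4.38 CPM, and the envelope plakins Evpl and Ppl rose by 1.10 and 1.13 on the log2 scale. The 4 that fell were Casp14, a protease of cornification, and Scel, Tgm5 and Tchh; Scel had a log2 change of -2.02. Of the other genes listed, 11, among them Flg2, Hrnr and Sprr3, did not pass the filter and 1 was not found.

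Grhl3, a transcription factor of epidermal barrier formation, was at 1.87 and 2.27 CPM at baseline, 13.4 and 12.2 in knockdown alone, 5.94 and 6.01 in Ras alone and 35.6 and 36.3 in the double libraries. Its log2 change was 4.12 ± 0.13 (adjusted p = 2.44e-20). Of 16 epidermal differentiation transcription factors 7 were higher, including Elf3 (1.29) and Zfp750 (1.86), and 2 were lower, including Hopx (-1.37). The shares of all genes were 32.1% higher and 32.8% lower. In the spinous layer list 4 of 13 were higher and 7 lower, with a median of -0.90. Dmkn fell from 132 and 134 to 33.3 and 30.1 CPM and Sbsn from 82 and 93.4 to 28.7 and 25 CPM. Sbsn was lower still in Ras alone, at 6.64 and 7.69 CPM. Cst6, a cysteine protease inhibitor, rose from 7.09 and 7.39 to 25.8 and 26.8 CPM.

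Basal keratins fell. Krt5 and Krt14, which form the filaments of basal keratinocytes, were at 13196 and 13279 and at 8662 and 8263 CPM at baseline. In the double libraries Krt5 was at 5959 and 5520.5 CPM and Krt14 at 3025 and 2963 CPM, log2 changes of -1.21 ± 0.03 and -1.5 ± 0.03. Of 15 basal keratinocyte and hemidesmosome genes 10 were lower and 4 higher, against 32.8% and 32.1% of all genes. Among the 15, Krt15 (-2.54) and the anchoring fibril collagen Col7a1 (-1.64) had the largest falls. Of the 4 tested wound keratins 3 fell. Krt16 went from 364 and 335 to 71.3 and 66.8 CPM, Krt17 from 5962 and 5905 to 2804 and 2814 CPM and Krt6a from 1862 and 1772 to 1183 and 1120.2 CPM. Krt6b did not pass the test (-0.61, adjusted p = 0.212). Reads of Krt6a, Krt14, Krt16 and Krt17 may be divided with near-identical genes. Krt19, a keratin of simple epithelium, rose from 0.124 and 0.711 to 3.78 and 3.13 CPM, and Krt80 from 3.86 and 5.61 to 11.1 and 10.2 CPM. Krt8, Krt18 and Krt20, also in the simple epithelial list, did not pass the filter on low counts. Summed over that list of 6, the level was only 16.7 and 14.8 CPM in the double libraries.

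Most hair follicle genes were lower, and Hedgehog genes moved both ways. Of 12 hair follicle and basal cell carcinoma lineage genes 9 were lower and 2 higher, with Lgr6, a marker of follicle stem cells, falling from 9.33 and 8.24 to 3.26 and 2.66 CPM. Nfatc1, Dlx3 and Msx2 fell by log2 changes of -1.39, -1.31 and -1.14. Of 11 Hedgehog genes 6 were lower and 4 higher, against 32.8% and 32.1% of all genes. Gli1, a target and effector of the pathway, was at 3.23 and 1.71 CPM at baseline and 0.521 and 0.782 CPM in the double libraries, from 76.5 and 18.5 counts (log2 change -1.96 ± 0.37, adjusted p = 5.12e-05). The co-receptor genes Boc and Gas1 fell by -1.91 ± 0.09 and -1.70 ± 0.09, given as signed log2 changes. Ptch1, which is a target of the pathway too, was higher, at 20.7 and 21.1 CPM against 11.7 and 11.2 CPM at baseline. Gli2 and Gli3 were also higher (0.50 and 0.52).

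SMAD targets were called lower in 11 members and higher in 7, and collagens and matrix genes in 12 and 2, where 32.8% of all genes were lower and 32.1% higher. The SMAD list held 24 tested genes that SMADs are known to regulate. Of these, 2 (8.33%) were at least 2-fold higher and 5 (20.8%) at least 2-fold lower, against 6.6% and 6.66% of all genes. Their median was -0.26, beside -0.42 in knockdown alone. Bambi, a decoy receptor, fell from 14.5 and 14.4 to 1.56 and 1.88 CPM, and Pmepa1, a feedback inhibitor of SMAD signalling, from 389 and 381 to 139.8 and 149 CPM. Thbs1, which activates latent TGF-beta, fell from 3169 and 3229 CPM to 1111 and 1162 CPM and lay below knockdown alone (1651 and 1748 CPM). Smad7, an inhibitory SMAD, rose by 0.21 on the log2 scale, while Fn1 did not pass the test (0.06, adjusted p = 0.642). Of the 16 tested collagens and matrix genes 6 were at least 2-fold lower, against 6.66% of all genes. Beside these falls, the 8 fibroblast markers summed to 3.69 to 3.92 CPM at baseline and 1.11 to 2.03 CPM in the double libraries, with Col3a1, Lum and Thy1 at 0 in all 4; their part in the falls was not tested. Fbln2 fell from 46.8 and 47 to 13.8 and 16.2 CPM. Among mesenchymal genes 4 of 9 were lower and 4 higher. The cadherin genes Cdh2 and Cdh11 fell by log2 changes of -1.87 and -1.58, and Zeb1 by -1.72, whereas Zeb2 and Twist1 rose by 1.02 and 0.86. Vim was at 1.37 and 0.284 CPM at baseline and 1.76 and 2.50 CPM in the double libraries; its change (1.28 ± 0.42) did not pass the test without baseline replicate 2 (0.61, adjusted p = 0.164) or without double replicate 2 (1.02, adjusted p = 0.101).

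Tight junction genes were among the junction genes that rose, and several desmosomal genes fell. Of 17 tested, 9 were higher and 5 lower, against 32.1% and 32.8% of all genes. In 9 of the 17 both double libraries exceeded the 6 others, against 18.5% of all genes. Beside Cldn4, the tight junction gene Ocln rose from 8.96 and 9.52 to 33.9 and 32.4 CPM. Pkp2, a desmosomal plakophilin, rose from 10.6 and 10.8 to 32.7 and 31.9 CPM. Epcam rose by 0.94 ± 0.04 and Cdh1, or E-cadherin, by 0.43 on the log2 scale. The 5 that fell were Pkp1, Dsg3, Perp, Dsc3 and Cdh3, of which Pkp1 and Dsg3 had log2 changes of -0.65 and -0.62.

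Oncofetal genes rose in 7 of 9 tested members, 6 of them at least 2-fold, against 32.1% and 6.6% of all genes. The oncofetal median log2 change was 1.73. Igf2bp2, an RNA-binding protein of fetal tissue, rose from 27.7 and 28.8 to 153 and 155 CPM and Plagl1, an imprinted zinc finger gene, from 246 and 236 to 769 and 835 CPM. Lin28b fell by a log2 change of -0.60.

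**Figure D3:**
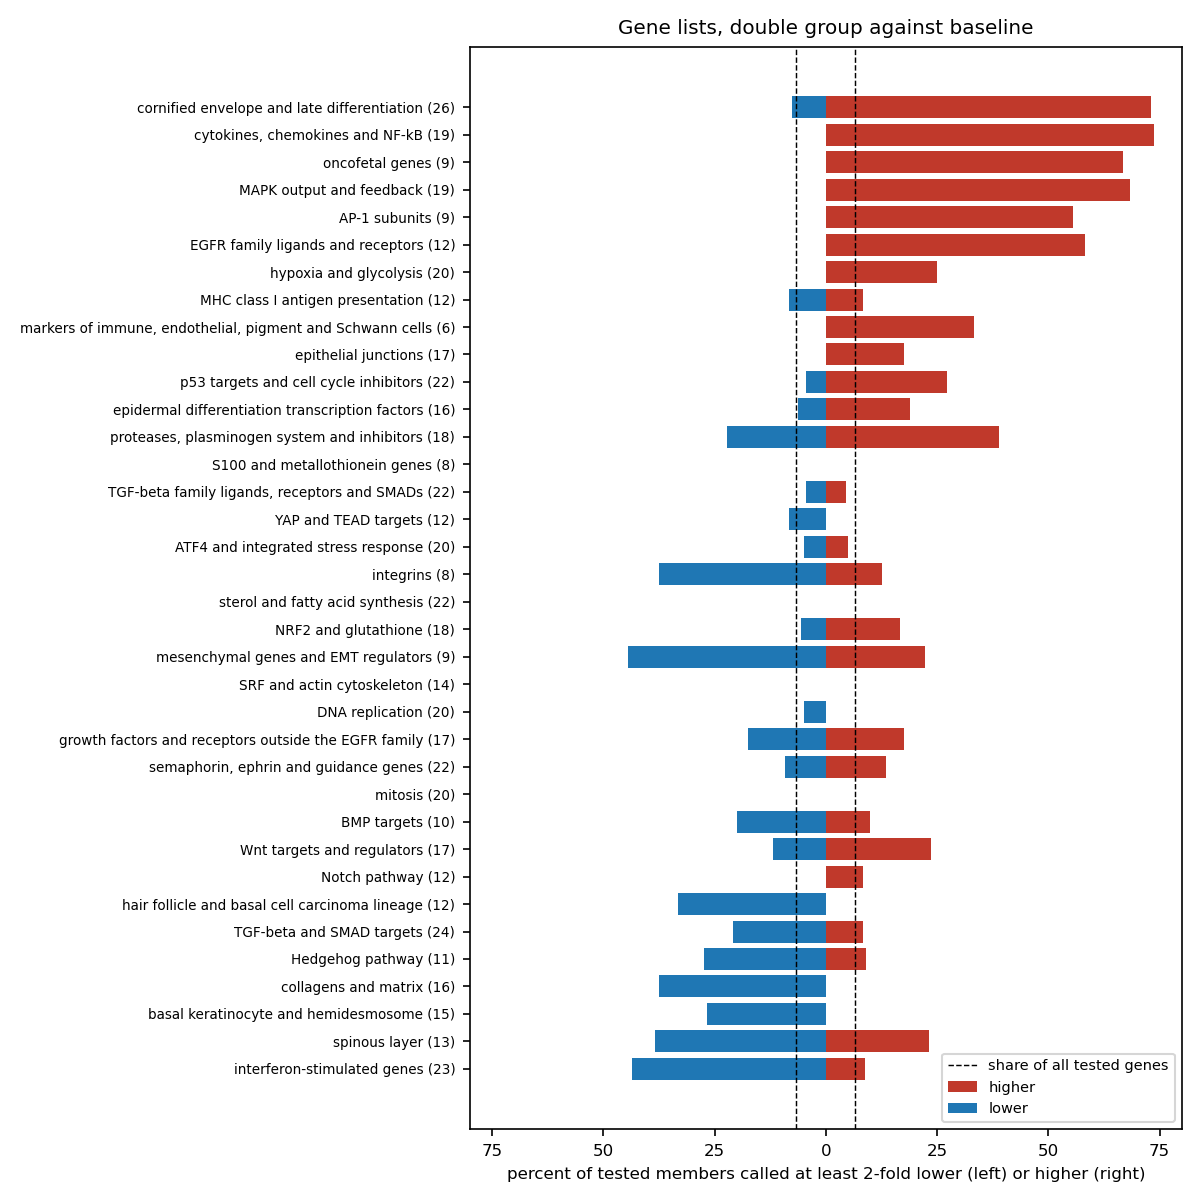
For each gene list with at least 6 tested members (number in brackets), bars give the percent of tested members called at least 2-fold higher (right) or lower (left) in the double group against baseline. Dashed lines are the shares of all tested genes, 6.6% and 6.66%; the cornified envelope, cytokine, oncofetal and MAPK lists reach farthest right and the mesenchymal and interferon-stimulated lists farthest left.

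Most inflammatory genes were higher in the double libraries than in any other group. Of 19 tested cytokine, chemokine and NF-kB genes, 17 were higher than baseline and 14 at least 2-fold, against 32.1% and 6.6% of all genes. The 1 that was lower was the antagonist gene Il1rn. The call of Il1rn was lost with DESeq2 and without baseline replicate 1 or double replicate 1, which left 0 members lower. In 16 of the 19 both double libraries lay above the 6 others, against 18.5% of all genes. The median log2 change was 2.43, beside 0.66 in knockdown alone and 0.16 in Ras alone. Cxcl1, a chemokine that attracts neutrophils, was at 1.24 and 1.85 CPM at baseline, 13.4 and 12.5 in knockdown alone, 3.86 and 4.10 in Ras alone and 45.2 and 50.3 in the double libraries. The rise was 30.8-fold (log2 change 4.96 ± 0.14, adjusted p = 1.49e-21). Icam1, an adhesion molecule for leukocytes, was at 2.86 and 3.13 CPM at baseline, 51.9 and 50.5 in knockdown alone, 4.17 and 3.22 in Ras alone and 94.2 and 97.2 in the double libraries. Cxcl5, another neutrophil chemokine, had 2.5 baseline counts and 272.5 counts in the double libraries, a ratio of 117 (95% counting interval 33 to 476). Tslp, an epithelial cytokine, had 1 and 144 counts, a ratio of 154 (27.3 to 6135). Ptgs2, which makes prostaglandins, was at 73.5 and 80.5 CPM at baseline, 154 and 180.5 in knockdown alone, 79.7 and 69.9 in Ras alone and 423 and 407 in the double libraries. Ccl2, which attracts monocytes, was at 0.622 and 0.426 CPM at baseline and 12.8 and 12 CPM in the double libraries. Ccl20, which attracts dendritic cells, rose from 1.12 and 0.853 to 17.3 and 18 CPM. Both double libraries were the highest of all 8 for Ptgs2, Ccl2 and Ccl20. Il1a stood at 0.498 and 0.426 CPM at baseline, 0.306 and 0.562 in knockdown alone and 0.463 and 0.439 in Ras alone, and at 3.26 and 3.44 CPM in the double libraries. The NF-kB genes Nfkbia, Relb, Nfkb2 and Tnfaip3 rose by 1.28, 1.21, 0.91 and 1.25 on the log2 scale. Beside these rises, the 7 immune cell markers summed to 8.21 to 9.38 CPM at baseline and 17.7 to 17.9 CPM in the double libraries, most of it Cd68, a lysosomal protein of macrophages and other cells. Cd68 was at 7.53 and 8.74 CPM at baseline and 15.5 and 14.8 CPM in the double libraries. Csf1r, a receptor of macrophages, rose from 0.560 and 0.426 to 2.22 and 3.05 CPM (log2 change 2.37 ± 0.37, edgeR adjusted p = 3.59e-06). Cd3e, Adgre1 and Cd79a were at 0 in all 4 libraries and Ptprc, the pan-leukocyte marker, at 0 in both double libraries; the part of such cells in the cytokine rise was not tested.

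Interferon-stimulated genes were lower in more members than they were higher. Of 23 tested, 11 were lower, 10 of them at least 2-fold, and 5 were higher, with a median of -1.06. Of all genes 32.8% were lower, 6.66% at least 2-fold, and 32.1% higher. Irf9, the DNA-binding subunit of the interferon response complex, fell from 30.3 and 30.3 to 4.10 and 3.91 CPM and Xaf1 from 29.4 and 28 to 2.80 and 3.28 CPM. Isg15 and Usp18, a ubiquitin-like protein and its protease, fell by log2 changes of -1.90 and -3.21. For Irf9, Xaf1, Usp18 and Isg15 the double libraries did not differ from knockdown alone past the threshold (edgeR adjusted p = 0.77, 0.752, 0.881 and 0.528). Irf1, which NF-kB also induces, was higher at 60.3 and 56.5 CPM against 16 and 17.7. MHC class I genes were higher in 7 of 12 tested, including H2-K1, from 16.9 and 17.4 to 45.5 and 52.8 CPM, and H2-D1, from 49.9 and 50.2 to 89.2 and 92.4 CPM. H2-T23 was the 1 that fell (-1.22).

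Most glycolytic and hypoxia genes were higher in the double libraries, by smaller amounts. Of 20 tested, 17 were higher, 5 at least 2-fold, and 1 was lower, against 32.1%, 6.6% and 32.8% of all genes. Both double libraries exceeded the 6 others in 16 of the 20, against 18.5% of all genes. The median log2 change of the list was 0.68, beside 0.02 in knockdown alone and 0.39 in Ras alone. Ldha, which makes lactate from pyruvate, was at 468 and 455 CPM at baseline, 547 and 522 in knockdown alone, 576 and 619 in Ras alone and 895 and 925 in the double libraries. Aldoa, a glycolytic aldolase, was at 583 and 589 CPM at baseline, 428 and 412 in knockdown alone, 597 and 664 in Ras alone and 908 and 915 in the double libraries. Egln3, a prolyl hydroxylase induced by hypoxia, rose from 9.95 and 11.8 to 70.4 and 72.8 CPM (log2 change 2.72 ± 0.09, adjusted p = 1.77e-20). Ndrg1, also hypoxia-inducible, was at 36.3 and 31.3 CPM in knockdown alone, 59.8 and 62.5 in Ras alone and 118 and 120.0 in the double libraries, a log2 change of 1.21 ± 0.06 from baseline. Bnip3, a mitophagy gene, rose by 1.57 on the log2 scale. Vegfa was an exception in order, at 14 and 15.1 CPM at baseline, 4.43 and 3.58 in knockdown alone, 41.5 and 48.7 in Ras alone and 22.2 and 24.6 in the double libraries. Pfkfb3 was the 1 that fell (-0.52).

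Most cell cycle genes changed by small amounts. The median absolute log2 change was 0.19 for mitosis and 0.17 for DNA replication genes, against 0.31 over all genes. Only 1 DNA replication gene was at least 2-fold lower (5.0% of those tested, against 6.66% of all genes). Of 20 mitosis genes 8 were lower and 3 higher, and of 20 DNA replication genes 7 were lower and 6 higher, where 32.8% of all genes were lower and 32.1% higher. The replication counts lay near those shares, and the 3 higher mitosis genes were 1 with DESeq2. Both double libraries lay below the 6 others in 9 mitosis and 9 replication genes, against 15.7% of all genes, and above them in 0 of either. Cdc20, an activator of the anaphase-promoting complex, was at 191 and 203 CPM at baseline, 148 and 147 in knockdown alone, 227 and 238 in Ras alone and 122 and 119 in the double libraries (log2 change -0.71 ± 0.04, adjusted p = 2.78e-14). Ccna2, or cyclin A, was at 291 and 304, 238 and 244, 369.5 and 351 and 204 and 195 CPM in the same order. Rrm2, the regulated subunit of ribonucleotide reductase, fell from 223 and 226 to 81.3 and 83 CPM and was at 107 and 109 CPM in knockdown alone. The cyclin E genes Ccne1 and Ccne2 fell by log2 changes of -0.67 and -0.88. Mcm4 and Pcna were above baseline by 0.37 and 0.20 and below knockdown alone by differences of -0.41 and -0.19. Of 22 p53 targets and cell cycle inhibitors 12 were higher and 7 lower, against 32.1% and 32.8% of all genes. Cdkn1a, or p21, was at 51.7 and 49.3 CPM at baseline, 42.2 and 36.8 in knockdown alone, 30.3 and 31.9 in Ras alone and 69.8 and 67.5 in the double libraries.

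**Figure D4:**
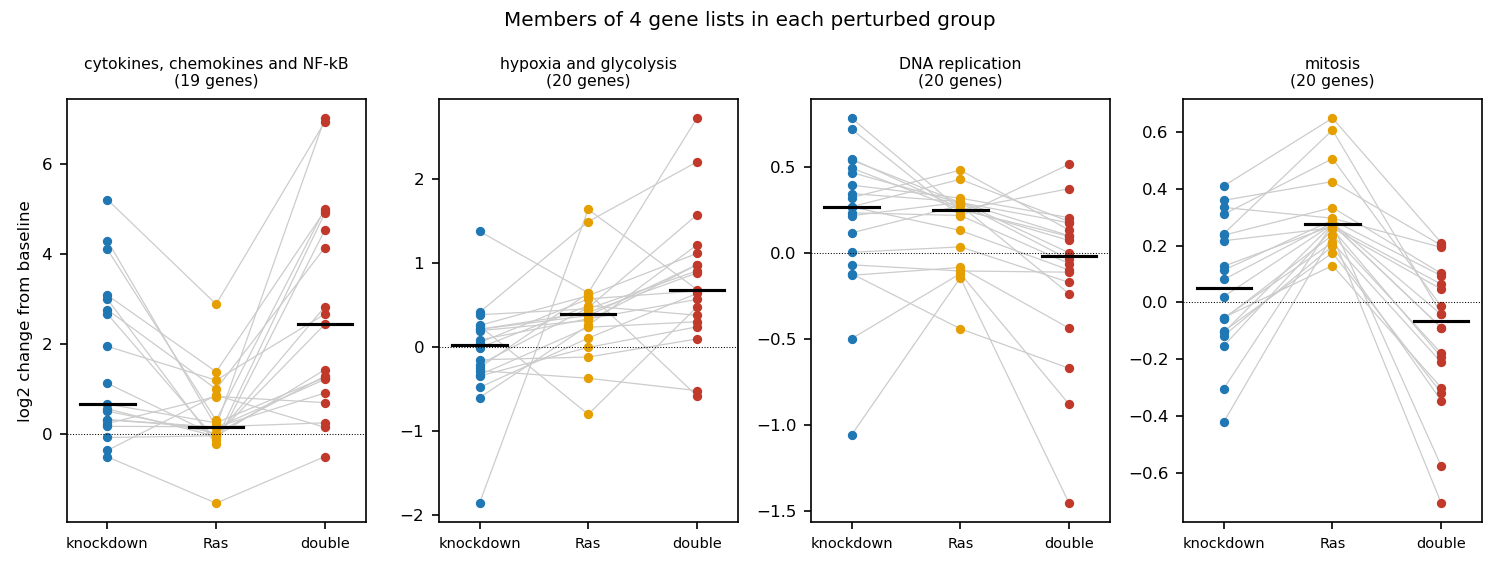
Fitted log2 change from baseline (y axis) of each member of 4 gene lists in knockdown alone, Ras alone and the double group; grey lines join a gene and black bars are medians. The median of the cytokine list reaches 2.43 and that of the glycolysis list 0.68 in the double group, while the replication and mitosis medians are -0.02 and -0.07 there, under 0.25 and 0.27 in Ras alone; the 3 changes share the baseline libraries.

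Proteases and their inhibitors changed in both directions. Of 18 proteases and inhibitors 10 were higher, 7 at least 2-fold, and 6 lower, 4 at least 2-fold. The shares of all genes were 32.1%, 6.6%, 32.8% and 6.66% in the same order. The plasminogen activator receptor gene Plaur rose from 1.93 and 2.06 to 18.4 and 20.8 CPM, its ligand Plau from 31.9 and 35.7 to 91.3 and 91.1 CPM and the matriptase gene St14 from 72.9 and 76 to 307 and 306 CPM. Mmp2, a gelatinase, fell from 7.59 and 7.53 to 1.04 and 0.782 CPM, and Timp3, an inhibitor of metalloproteases, from 2291 and 2255 to 1159 and 1176 CPM.

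Genes with a mean of at least 5 CPM over the 8 libraries were ranked by how far the double libraries stood from both single groups. The 6 highest were Cldn4, Aqp1, Thbs2, Ier3, Cxcl1 and Adam8. The water channel gene Aqp1 was at 1.74 and 1.99 CPM at baseline, 11.5 and 8.15 in knockdown alone, 5.87 and 5.13 in Ras alone and 57.3 and 53.6 in the double libraries. Thbs2, a matricellular thrombospondin, was at 13.7 and 14.6, 41.9 and 42.4, 52 and 43.7 and 194 and 194 CPM in that order. Thus both single groups lay above baseline and the double libraries above both. Ier3, an immediate early gene, was at 33.9 and 37.8, 78.8 and 83.1, 56.5 and 60.9 and 306 and 317 CPM, with differences of 1.94 ± 0.05 from knockdown alone and 2.41 ± 0.05 from Ras alone. Adam8, a membrane metalloprotease, was at 2.86 and 3.27, 6.11 and 6.82, 1.39 and 1.17 and 21.8 and 20.9 CPM. The 6 lowest were Cyp4b1, Pi15, Glul, Ucp2, Npr3 and Limch1. Glul, glutamine synthetase, was at 26 and 24.6 CPM at baseline, 3.36 and 2.81 in knockdown alone, 3.55 and 2.34 in Ras alone and 1.04 and 1.25 in the double libraries. The natriuretic peptide receptor gene Npr3 was at 25.4 and 30.2, 9.09 and 11.6, 11.1 and 12.5 and 2.87 and 4.53 CPM. For Cyp4b1 the difference from knockdown alone (-1.60 ± 0.50, adjusted p = 0.0136) did not pass the test without knockdown replicate 1 (-0.97, adjusted p = 0.264) or without double replicate 1 (-1.47, adjusted p = 0.101).

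The combined change was also set against the sum of the 2 single log2 changes, with the interaction term of the model as the test of the difference. It departed from the sum at 4791 genes (38.2%), upward at 2530 (20.2%) and downward at 2261 (18.0%). Departures of at least 2-fold were found at 537 genes (4.28%), 442 upward (3.53%) and 95 downward (0.758%). With DESeq2 2828 genes departed. The downward departures were led by MAPK genes that each single perturbation had raised. Spry4 had single changes of 4.30 and 5.29, which sum to 9.59, while the combined change was 6.11, a departure of -3.48 ± 0.59 (adjusted p = 9.85e-05). Etv5 and Etv4 departed by -2.99 ± 0.15 and -2.72 ± 0.09, and Dusp6 by -1.95 ± 0.12. Of the 19 MAPK genes 12 departed downward and 2 upward. Fxyd5 departed by -3.11 ± 0.58 and Tcf7, a Wnt pathway transcription factor, by -2.03 ± 0.15.

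The 6 largest upward departures among genes of at least 5 CPM were of 2 kinds. Krt16, Tubb3, Pgm5 and Foxq1 fell in each single group and in the double group, but by less than the sum. Krt16 had single changes of -2.29 and -2.73 and a combined change of -2.34 (departure 2.68 ± 0.11, adjusted p = 8.08e-09). Tubb3, a neuronal tubulin, had -1.98, -3.19 and -2.64, and departed by 2.54 ± 0.16. Pgm5 and the forkhead gene Foxq1 departed by 2.63 ± 0.30 and 2.66 ± 0.16. In Adam8 and Nipal1 the single changes had opposite signs. Adam8 had 1.08 in knockdown alone and -1.25 in Ras alone, and rose by 2.80 in the double libraries, a departure of 2.97 ± 0.28 (adjusted p = 3.96e-09). Nipal1, a magnesium transporter gene, had 3.01 and -3.08, and a combined change of 2.77. By list, departures were downward in 19 of 20 mitosis genes and 16 of 20 DNA replication genes. They were upward in 14 of 20 glycolysis and hypoxia genes, 10 of 15 basal keratinocyte genes and 10 of 19 cytokine and NF-kB genes (2 downward). Other lists also had higher upward shares than the cytokine list. These included 12 of 18 proteases and inhibitors, 11 of 17 junction genes (2 downward in each) and 8 of 12 MHC class I genes. Among all genes 18.0% departed downward and 20.2% upward.

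**Figure D5:**
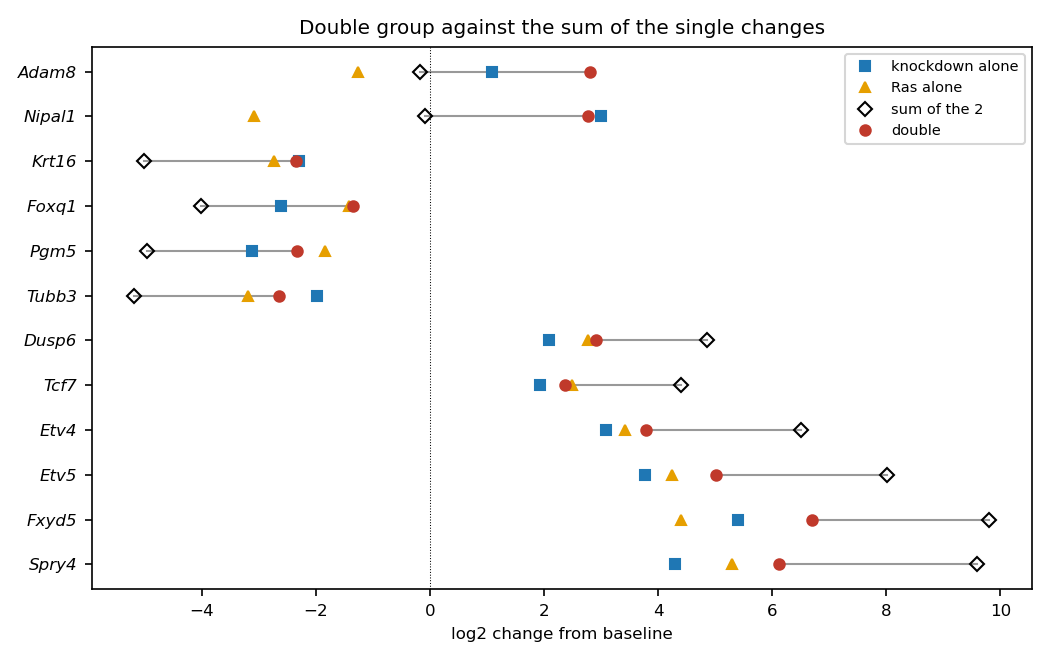
For 12 genes, log2 change from baseline in knockdown alone (squares), Ras alone (triangles) and the double group (circles), with the sum of the single changes as open diamonds; grey lines mark the departure. For Spry4 the circle lies at 6.11 and the diamond at 9.59, and for Krt16 they lie at -2.34 and -5.02.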

How the data were processed

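RNA was made into TruSeq libraries, per the labels' protocols. Gene by gene, the estimated counts of 8 libraries stand in 1 deposited table, not normalized, made with TopHat and HOMER on mm9, per the submitters' processing notes, which also name DESeq2. The sources used here give no tool versions, strand setting or handling of reads that match several genes, so reads of near-identical or overlapping genes may be divided or shared. All values were multiples of 0.5. The tests had been designed for whole counts, so the estimated counts were rounded.

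Of 24907 symbols (2 repeated entries dropped), edgeR 4.0.16 in R 4.3.3 kept 12538 by filterByExpr, with 99.96% of counts. The model held 4 group means over the 8 libraries, TMM factors and the robust quasi-likelihood test (4 residual degrees of freedom, biological coefficient of variation 3.37%). Calls were made at an adjusted p of 0.05. Values after ± are approximate standard errors, the absolute log2 change divided by the square root of the F statistic of its test. They were not taken from the fit itself. CPM use the TMM factors. A ratio on 1 to 3 counts has an exact binomial 95% interval; 3 counts were the floor. Intervals cover counting error only. The 2 libraries of each group differed by more than sampling noise.

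Members, the 39 gene lists and the naming rule were chosen with earlier results of these data known. The rule takes Tgfbr1, Ras genes and Esr1; the 12 largest rises and falls with a mean of at least 5 CPM over the 4 libraries and no overlap; the 4 largest called changes of each list with at least 1 CPM; the 6 genes farthest above and below both single groups; and the 6 largest departures each way, with at least 5 CPM over the 8 libraries. Predicted genes and small RNAs stay out of the ranked parts. Its clause on opposite single changes that leave no combined call found no gene. Other list members named were chosen after their values were seen, and some genes are not reported here. DESeq2 1.42.0, other scaling factors, no filter, a fit of the compared libraries alone, the replicate block, leaving out Rn45s and leaving out each library were the alternatives.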

Additional observations from a re-analysis of the deposited data

Results flagged for a closer look

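The results below are those in which the double group differed from the sum of the 2 single log2 changes by the interaction test, so that the response to RasV12 under Dox and 4OHT differed between knockdown and non-silencing cells. This held for 4791 genes. Listed here are those named for standing beyond both single groups or for the size of the departure, with a mean of at least 5 CPM over the 8 libraries; other named genes departed too. The combined change lay above the sum for Adam8 (2.97 on the log2 scale), Nipal1 (2.84), Krt16 (2.68), Foxq1 (2.66), Pgm5 (2.63), Tubb3 (2.54), Cldn4 (2.0), Glul (1.68), Ier3 (1.23), Aqp1 (0.95) and Thbs2 (0.45). It lay below the sum for Spry4 (-3.48), Fxyd5 (-3.11), Etv5 (-2.99), Etv4 (-2.72), Tcf7 (-2.03), Dusp6 (-1.95) and Pi15 (-0.64). Fxyd5 rests on 5 baseline counts and Spry4 on 5.5.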

How the results depend on the processing

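The combined comparison called 7099 to 8236 genes when each of the 8 libraries was left out in turn, against 8136 with all. Using DESeq2 in place of edgeR moved 3 counts by more than 1.5 times: double against knockdown alone from 4531 to 2628, departures from the sum from 4791 to 2828, and Ras alone against baseline from 5281 to 3265. The cause was not tested. With upper-quartile factors 3663 genes were higher and 4505 lower. No pairing by replicate number was detected, as deviations of same-numbered libraries correlated at -0.02 to 0.03 over genes. A weak pairing could be missed this way, because noise at low counts enters the correlation. With the replicate block 8158 genes were called in the combined comparison and 4814 departed. Of 176 named genes, 172 kept their combined call under the 15 alternatives, and Hey1, Pmel, S100a3 and Vim lost it under at least 1. The departure of Aqp1 (0.95) was not called without baseline replicate 2 (0.85), and that of Pi15 (-0.64) without knockdown replicate 1 (-0.57) or either double library (-0.73 and -0.57); that of Ucp2 (0.52) was called only without knockdown replicate 1 (0.80). Of 78 list counts 69 stayed within 1.5 times. The 9 others went at their lowest from 3 to 1 for mitosis genes higher, 5 to 3 for interferon-stimulated genes higher, 4 to 2 for mesenchymal genes higher, 2 to 1 for hair follicle genes higher and for collagens and matrix genes higher, 2 to 1 for EGFR family genes lower, 1 to 0 for cytokine genes lower, 5 to 3 for NRF2 genes lower and 3 to 1 for immune, endothelial, pigment and Schwann markers lower. With 2 libraries per group, genes of few counts are the least certain, and intervals cover counting error only.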

Other observations

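Gene groups outside those described above moved less or in both directions. Beside the counts below, 32.1% of all tested genes were higher and 32.8% lower. Of 22 sterol and fatty acid synthesis genes 9 were higher and 8 lower, none at least 2-fold; Insig1, a sterol sensor, rose by 0.90 on the log2 scale and Acaca, acetyl-CoA carboxylase, fell by a change of -0.74. Of 20 ATF4 and integrated stress response genes 9 were higher and 7 lower, with Ddit4, an mTOR inhibitor, at 159.9 and 165 CPM in the double libraries against 37.3 and 34.5 CPM at baseline, and Slc7a11, the cystine transporter, at 73.1 and 81.7 against 176 and 177 CPM. Of 18 NRF2 and glutathione genes 8 were higher and 5 lower, with Nfe2l2 itself up by 1.04 and Txnrd1 by 1.02.

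Secreted and guidance factors changed in both directions. Igfbp7 rose from 138 and 144 to 791 and 789 CPM while Igfbp2 fell from 794 and 801 to 190.5 and 179 CPM and Igfbp5 from 33.7 and 26.4 to 3.71 and 2.81 CPM. Bdnf, a neurotrophin, rose from 5.22 and 4.12 to 26.2 and 23.4 CPM, the guidance factor gene Slit2 from 8.09 and 8.24 to 89.6 and 95 CPM and the semaphorin receptor gene Nrp1 from 55.9 and 57.1 to 178 and 190.4 CPM. Among Wnt ligands, Wnt4 fell from 533 and 512 to 101 and 104 CPM and Wnt7a rose from 13.7 and 15.7 to 74 and 79.5 CPM, with 6.56 and 7.03 CPM in Ras alone. Notch3 rose from 2.49 and 2.49 to 13.4 and 15 CPM and Lfng, which modifies Notch receptors, fell from 119.7 and 125 to 64.9 and 63.3 CPM. Among integrins, Itga1 fell from 13.9 and 13.5 to 1.89 and 2.03 CPM and Itgb3 from 4.98 and 5.12 to 1.04 and 1.09 CPM. Of 8 tested integrins 4 were higher, all but Itgb7 by less than 2-fold, where 32.1% of all genes were higher. Among YAP and TEAD targets 7 of 12 were higher and 4 lower, against 32.1% and 32.8% of all genes. Amotl2 had a log2 change of -1.12 and Cyr61 of 0.99. Among BMP targets Id4 fell by a change of -2.19, while Id1, Id2 and Id3 rose by 0.60, 0.38 and 0.56. Gapdh, a glycolytic enzyme with many near-identical copies, was at only 8.02 and 8.31 CPM at baseline; the sources used here do not say how reads that match several genes were counted.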
